A study of Mus musculus with 8 samples.

Results

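Cardiac lineage transcription factors are DNA-binding proteins that switch on heart muscle genes in the embryo and keep them on in the adult ventricle. The genes described here are Gata4, Gata6, Nkx2-5, Tbx5, Tbx20, Mef2a, Mef2c, Mef2d, Hand2 and Srf, chosen by symbol through their Ensembl mouse gene identifiers in GENCODE M21. All 10 had a row among the 38293 identifiers of the count table, and all 10 were among the 13336 genes with enough counts to be tested. None of the 10 passed the test between genotypes. The largest measured difference was that of Mef2d. Per exon length, Mef2d made up a larger share of MEF2 transcripts in each of the 4 knockout hearts than in any wild-type heart. That share difference did not pass after adjustment over the shares compared, which the number of hearts made hard to pass. With a correction for GC content and length, the hearts of the genotypes overlapped.

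The series holds left ventricles of 4 mORF4-NBDY_KO mice (KO, replicates 5 to 8) and 4 WT mice (replicates 1 to 4), with 1 poly(A) RNA library per heart. Nbdy, also called mORF4, encodes a microprotein of the mRNA decapping machinery. All 8 mice were untreated C57BL/6 males of 8 weeks under normal housing. The labels do not describe the knockout allele or say whether it acts outside the heart. Whole ventricle was used, so fewer cells of a type and less RNA per cell cannot be told apart in any value below.

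GATA4 and GATA6 are zinc finger proteins, NKX2-5 is a homeodomain protein, TBX5 and TBX20 carry a T-box, and HAND2 is a basic helix-loop-helix protein. The MEF2 proteins and SRF share the MADS domain. GATA4, NKX2-5 and TBX5 bind one another and occupy the same heart enhancers, and mutations of their human genes cause congenital heart defects. MEF2 proteins link calcium signals to muscle genes and are held back by class IIa histone deacetylases. SRF works with myocardin at muscle genes and with ternary complex factors at genes that respond within minutes to a stimulus.

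Libraries held 11793495 to 14699949 counts in KO and 11101901 to 12773611 in WT. Nbdy checked the labels, with 137, 135, 133 and 115 counts in KO replicates 5 to 8 and 241, 208, 246 and 248 in WT replicates 1 to 4 (log2 fold change -0.97 ± 0.11 SE, edgeR adjusted p = 0.0060). Nbdy transcript therefore remained detectable in every KO heart. WT replicates 1 and 2 stood apart. WT replicate 1 held 29.2% mitochondrial counts, against 23.0 to 26.7% in KO and 19.4 to 19.9% in the other WT libraries. WT replicate 2 was the lowest of 8 libraries for 19.1% of the genes tested and the highest for 19.8%, the largest shares of any library. For many of the results below, a value without WT replicate 2 is given as well.

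Per length of transcript, Nkx2-5 was the most abundant of the 10 genes and Tbx20 the least. Levels per length were counts scaled to library size (CPM) divided by the kilobases of annotated exon sequence (RPKM), averaged over the 8 hearts. Nkx2-5 stood at 38.3 RPKM, Mef2d at 31.5, Srf at 28.6 and Hand2 at 27.5, and the ranges over hearts of each neighbouring pair in this order overlapped. Gata4 followed at 16.3 RPKM and Mef2a at 9.70, and their ranges touched as well, at 10.1 for the lowest Gata4 value and 10.8 for the highest Mef2a value. Gata6 stood at 7.21 RPKM, with a range that met neither that of Mef2a above nor that of Tbx5 below. Tbx5 at 3.41, Mef2c at 3.36 and Tbx20 at 2.73 RPKM closed the order with overlapping ranges. An annotated exon that the ventricle does not use lowers such a value, and the annotated exons of Mef2a, Mef2c and Tbx20 sum to 14681, 15715 and 11997 bases, against 1719 for Nkx2-5. The thinnest evidence was 99 counts (Tbx5, WT replicate 2) and the deepest 3276 counts (Mef2d, KO replicate 5).

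By edgeR's quasi-likelihood test with Benjamini-Hochberg adjustment (threshold 0.05), 0 of the 10 genes passed, and 0.0225% of all genes tested did. Adjusted p-values of the 10 ran from 0.772 to 0.986. At an unadjusted p under 0.05 there was 1 gene, Mef2d, where 6.4% of all genes tested lay under that value. That count was 0 of the 10 with library totals and without WT replicate 2, KO replicate 5 or KO replicate 6. DESeq2 also called 0 of the 10, with a smallest adjusted p of 0.738 and 1 gene at an unadjusted p under 0.05. For 0 of the 10 did all KO hearts lie on one side of all WT hearts, against 4.12% of all genes tested. Log2 fold changes were above 0 for 7 of 10 genes, against 49.4% of all genes tested, with a median of 0.15, against -0.0032 over all genes tested. Without WT replicate 2 the median of the 10 was 0.029, with 6 of 10 above 0.

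The fit also bounded each difference, though not tightly. The 95% intervals of the 10 genes reached down to 0.740-fold (Mef2c) and up to 1.57-fold (Mef2d) of WT, and 9 of the 10 included no change. Variation between hearts, given as edgeR's biological coefficient of variation (BCV), ran from 0.122 for Gata6 to 0.195 for Tbx5, and 5 of the 10 lay below the median gene.

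**Figure D1:**
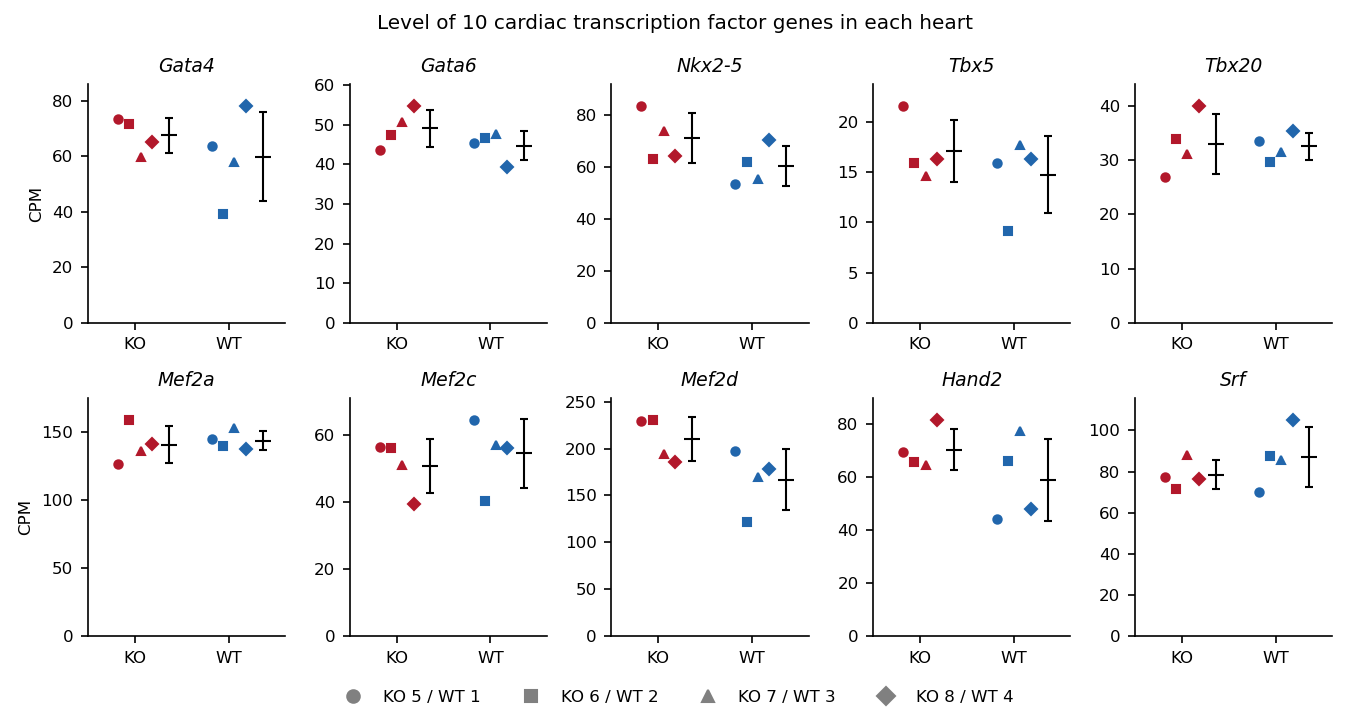
Level of each gene in CPM (vertical axis, from 0) in 4 KO hearts (left, red) and 4 WT hearts (right, blue), with the mean and SD in black; shapes name replicates and pair no hearts. The groups overlap in every panel, and WT replicate 2 (blue square) is the lowest heart for Gata4, Tbx5 and Mef2d.

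Gata4, which drives natriuretic peptide and myosin genes and the growth response of heart muscle, measured 73.4, 71.5, 59.9 and 65.3 CPM in KO replicates 5 to 8. Gata4 spans chr14:63198922-63271692 on the minus strand of GRCm38. In WT replicates 1 to 4 it measured 63.8, 39.4, 58.2 and 78.1 CPM. The WT hearts enclosed all KO hearts, with the lowest and the highest value of the 8. Group levels were 67.5 ± 6.15 CPM in KO and 59.8 ± 16.0 in WT (SD, n = 4 each). KO over WT gave a log2 fold change of 0.17 ± 0.17 (SE, edgeR adjusted p = 0.875), and 0.02 without WT replicate 2.

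Gata6, which overlaps with Gata4 in heart development and is also active in vascular smooth muscle, had the lowest BCV of the 10. It measured 43.7, 47.5, 50.6 and 54.7 CPM in KO replicates 5 to 8 and 45.4, 46.5, 47.7 and 39.3 CPM in WT replicates 1 to 4. KO replicates 7 and 8 lay above all WT hearts, and KO replicate 5 lay below 3 of them. The log2 fold change was 0.13 ± 0.11 (SE, edgeR adjusted p = 0.833), and 0.015 with each library corrected for GC content and transcript length. Gata4 took 69.5 ± 3.65% of the Gata4 and Gata6 transcripts per exon length in KO and 68.1 ± 7.59% in WT (SD, n = 4 each; exact two-sided permutation p = 0.771).

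Nkx2-5, needed for chamber growth and conduction, was 71.3 ± 9.54 CPM in KO and 60.4 ± 7.66 in WT (SD, n = 4 each). Nkx2-5 spans chr17:26838664-26845009 on the minus strand of GRCm38. Single hearts gave 83.6, 63.0, 74.0 and 64.5 CPM in KO replicates 5 to 8 and 53.4, 62.1, 55.5 and 70.4 CPM in WT replicates 1 to 4. KO replicates 5 and 7 exceeded every WT heart, while WT replicate 4 exceeded KO replicates 6 and 8. Its log2 fold change was 0.24 ± 0.13 (SE, edgeR adjusted p = 0.783), an interval of 0.976-fold to 1.43-fold. It was 0.11 with that GC and length correction, and at 67.1% GC Nkx2-5 had the most GC-rich transcript of the 10.

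Tbx5, which patterns the chambers and the conduction system and is known for Holt-Oram syndrome in humans, measured 21.6, 15.9, 14.6 and 16.3 CPM in KO replicates 5 to 8. Tbx5 spans chr5:119832668-119885219 on the plus strand of GRCm38. WT replicates 1 to 4 gave 15.9, 9.12, 17.7 and 16.3 CPM. KO replicate 5 was the highest heart and WT replicate 2 the lowest, and the remaining hearts interleaved. KO over WT gave a log2 fold change of 0.21 ± 0.20 (SE, edgeR adjusted p = 0.871), and 0.04 without WT replicate 2.

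Tbx20, which represses other T-box genes in the chambers and keeps adult heart muscle working, had 32.9 ± 5.49 CPM in KO and 32.5 ± 2.49 in WT (SD, n = 4 each). Tbx20 spans chr9:24718138-24774303 on the minus strand of GRCm38. KO replicate 8 was the highest heart at 39.9 CPM and KO replicate 5 the lowest at 26.8, so the KO hearts enclosed the WT range of 29.7 to 35.4. The log2 fold change was 0.02 ± 0.13 (SE, edgeR adjusted p = 0.986), with an interval of 0.832-fold to 1.23-fold. Tbx5 made up 56.9 ± 7.15% of Tbx5 and Tbx20 transcripts per exon length in KO and 53.1 ± 6.36% in WT (SD, n = 4 each; exact two-sided permutation p = 0.486). The difference of 3.87 percentage points was 0.883 points without WT replicate 2.

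**Figure D2:**
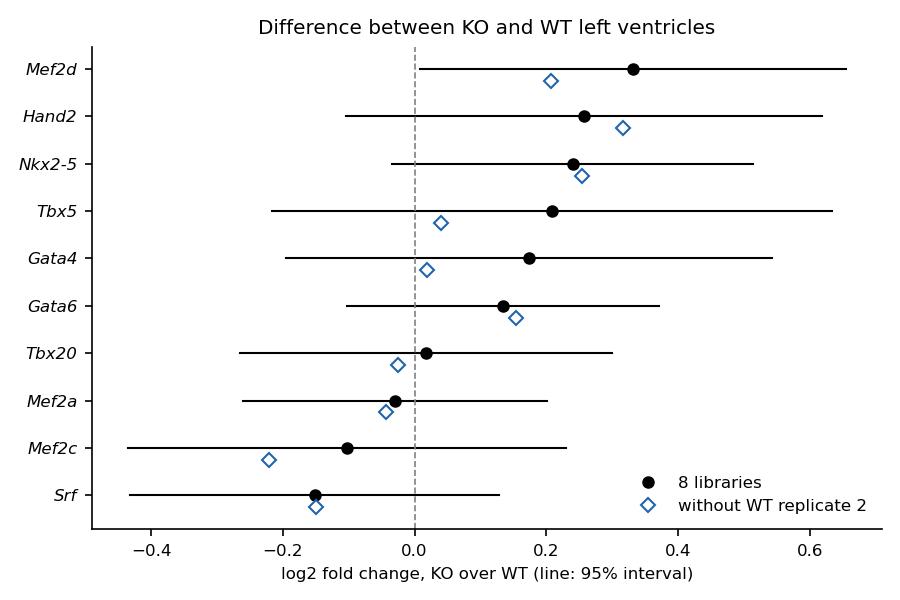
Log2 fold change of KO over WT (horizontal axis) for each gene, with filled points and 95% intervals from 8 libraries and open diamonds from the fit without WT replicate 2. The interval of Mef2d alone stays above 0, and Gata4 and Tbx5 move to 0.02 and 0.04 without that library.

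Mef2d, a MEF2 family member linked to stress-dependent growth of the adult mouse heart, had the largest measured difference of the 10. The gene spans chr3:88142372-88172086 on the plus strand of GRCm38. It held 3276, 3251, 2473 and 2116 counts in KO replicates 5 to 8 and 2461, 1317, 2076 and 2320 in WT replicates 1 to 4. Scaled to library size this was 229, 231, 194 and 185 CPM in KO and 198, 121, 170 and 178 CPM in WT. KO replicates 5 and 6 exceeded every WT heart, and WT replicate 1 lay above KO replicates 7 and 8. Group levels were 209.8 ± 23.6 CPM in KO and 166.7 ± 32.4 in WT (SD, n = 4 each). Its log2 fold change was 0.33 ± 0.15 (SE, edgeR unadjusted p = 0.045 and adjusted p = 0.772), so Mef2d did not pass. It was 0.21 when WT replicate 2 was left out and 0.42 when WT replicate 1 was.

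Mef2a, the family member needed for mitochondrial upkeep in adult mouse heart, was 140.9 ± 13.5 CPM in KO and 143.8 ± 6.83 in WT (SD, n = 4 each). Its log2 fold change was -0.03 ± 0.11 (SE, edgeR adjusted p = 0.973), and the highest heart of 8 exceeded the lowest 1.25-fold, the narrowest spread of the 10. Mef2c, which acts first in the embryonic heart and is also active in endothelium, measured 56.5, 56.3, 51.1 and 39.6 CPM in KO replicates 5 to 8. WT replicates 1 to 4 gave 64.7, 40.5, 57.1 and 56.3 CPM for Mef2c. The lowest heart was replicate 8 in KO and replicate 2 in WT. Mef2a spans chr7:67231163-67372858 on the minus strand and Mef2c chr13:83504034-83667080 on the plus strand of GRCm38. The log2 fold change of Mef2c was -0.10 ± 0.15 (SE, edgeR adjusted p = 0.924), and -0.22 without WT replicate 2.

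Within the mix of the 3 MEF2 transcripts, the shares of Mef2d and Mef2c did not overlap between genotypes, whereas their levels did. Mef2d made up 75.8, 72.8, 72.1 and 71.8% of MEF2 counts per exon length in KO replicates 5 to 8, against 70.2, 62.7, 66.8 and 69.7% in WT replicates 1 to 4. Mef2c made up 7.11, 6.77, 7.24 and 5.85% in KO, against 8.76, 7.95, 8.57 and 8.38% in WT. Every KO heart thus lay above every WT heart for the Mef2d share and below every WT heart for the Mef2c share. The Mef2c separation depended on the division by exon length. Plain counts of Mef2a, Mef2c and Mef2d were 1815, 807 and 3276 in KO replicate 5. They were 1516, 439 and 1317 in WT replicate 2, which gives KO replicate 5 the larger Mef2c share. Mef2a accounted for 20.1 ± 2.18% in KO and 24.2 ± 3.76% in WT, with overlapping hearts (SD, n = 4 each).

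The Mef2d share was 5.77 percentage points higher in KO and the Mef2c share 1.68 points lower (exact two-sided permutation p = 0.0286 each, the smallest that 70 assignments allow). Adjusted over the 5 paralog shares compared, both p-values were 0.071, so neither share passed. With 4 hearts per group they could have passed only if another of the 5 shares had also reached the smallest p. The adjusted values therefore cannot decide whether these shares differed. The shares of one family are not independent since they sum to the whole. The Mef2d share difference was 4.20 points without WT replicate 2. With each library corrected for GC content and length, an alternative chosen after seeing the data, Mef2d took 72.2 ± 0.683% in KO and 68.4 ± 2.51% in WT (SD, n = 4 each). The Mef2d difference was then 3.72 points (exact permutation p = 0.057) and the Mef2c difference -1.12 points (exact permutation p = 0.114). Neither p was the smallest that 70 assignments allow, so KO and WT hearts then overlapped for both shares. Mef2d transcripts are 55.0% GC, and those of Mef2a and Mef2c are 42.0 and 40.8% GC. The part of GC content in the shift of the shares beyond these values was not tested.

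**Figure D3:**
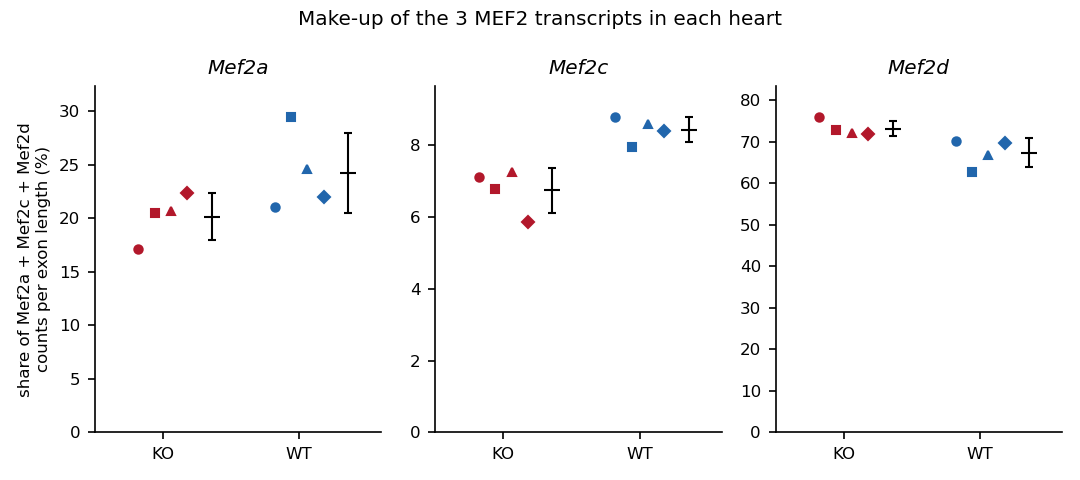
Share of each MEF2 gene in the summed counts per exon length of Mef2a, Mef2c and Mef2d (vertical axis, percent, from 0) in 4 KO hearts (left, red) and 4 WT hearts (right, blue), with mean and SD in black. KO hearts lie above all WT hearts for Mef2d (71.8 to 75.8%) and below all WT hearts for Mef2c (5.85 to 7.24%). With each library corrected for GC content and length, which is not drawn, the hearts overlap for both genes.

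Hand2, which shapes the right ventricle and is also expressed in cardiac fibroblasts, stood at 69.4, 65.9, 64.4 and 81.6 CPM in KO replicates 5 to 8. Hand2 spans chr8:57320983-57324633 on the plus strand of GRCm38. WT replicates 1 to 4 gave 44.2, 65.9, 77.4 and 48.0 CPM. WT hearts formed a low pair, replicates 1 and 4, and a high pair, replicates 2 and 3, that overlapped the KO hearts. KO over WT gave a log2 fold change of 0.26 ± 0.17 (SE, edgeR adjusted p = 0.801), and it was 0.14 without WT replicate 1 and 0.41 without WT replicate 3.

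Srf, the MADS factor of actin and immediate early genes, was the lowest of the 10 relative to WT. Srf spans chr17:46548329-46556175 on the minus strand of GRCm38. It measured 77.5, 71.5, 88.2 and 76.6 CPM in KO replicates 5 to 8 and 70.01, 87.6, 85.7 and 105.2 CPM in WT replicates 1 to 4. WT replicates 1 and 4 held the lowest and the highest value of the 8 hearts. The log2 fold change was -0.15 ± 0.13 (SE, edgeR adjusted p = 0.841), and -0.28 with that GC and length correction. The Srf promoter is shown because SRF is known to bind its own gene. The stretch lies at chr17:46556176-46556412 on the minus strand of GRCm38.p6 (RefSeq) and ends where annotated exon sequence begins, and like those further on it is written 5′ to 3′ on the strand of its gene. Capitals mark a pair of CArG boxes, the SRF binding motif, which start 82 and 62 bases before the RefSeq start, and 1 AAGTG, the core of the NKX2-5 motif.
Srf: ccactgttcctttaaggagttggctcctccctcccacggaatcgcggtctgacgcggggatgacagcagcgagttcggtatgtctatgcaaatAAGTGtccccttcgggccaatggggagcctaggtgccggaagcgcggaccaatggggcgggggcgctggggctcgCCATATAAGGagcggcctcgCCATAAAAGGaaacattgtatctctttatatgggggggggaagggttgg

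Promoter sequence was at hand for 7 of the 10 genes, with 9 promoters. Srf was the 1 gene among them with a CArG box in the 250 bases before the start. Of 32851 promoters searched in the same way on both strands, 1.47% held a CArG box and 40.7% held AAGTG. That NKX2-5 core also occurred in promoters of Hand2 and Mef2c. The GATA form AGATAA occurred in the Hand2 promoter and in 9.99% of all promoters. Another GATA form searched, TGATAA, occurred there too and in 7.94% of all promoters. A match in this window is a description of the sequence and does not show binding.

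Some of the 10 genes overlap other annotated genes on the opposite strand, and the sources used here do not give the strand setting of the authors' counting. The noncoding gene 1010001N08Rik shares 93 exonic bases with Gata6 and held 593 counts over the 8 hearts, against 4731 for Gata6. It measured 6.999 ± 2.61 CPM in KO and 4.77 ± 3.31 in WT (SD, n = 4 each), a log2 fold change of 0.54 ± 0.42 (SE, edgeR adjusted p = 0.824). Lysmd4 shares 302 exonic bases with Mef2a and held 1553 counts, against 14397 for Mef2a, at 15.6 ± 3.23 CPM in KO and 15.1 ± 2.25 in WT (SD, n = 4 each). The antisense gene 1700113A16Rik at Mef2d held 34 counts in all, against 19290 for Mef2d, and Gm26904 at Srf held 1. Hand2os1, a noncoding gene on the opposite strand, shares 461 exonic bases with Hand2. The count table has no row for Hand2os1, so it could not be analysed. Gata6os, a noncoding neighbour of Gata6, was not analysed here.

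Partners and co-regulators of the 10 factors had 0 of 24 tested genes called, 16 above 0 and 8 below, with a median log2 fold change of 0.11 (0.055 without WT replicate 2). Over all genes tested 0.0225% were called and 49.4% lay above 0. At that share of calls, 0 called says little about this list or any list that follows. Hdac5, a class IIa deacetylase that restrains MEF2, was 135.6, 141.1, 126.1 and 120.8 CPM in KO replicates 5 to 8 and 115.1, 103.3, 102.1 and 107.6 in WT replicates 1 to 4. All KO hearts exceeded all WT hearts, but the log2 fold change of 0.29 ± 0.10 did not pass (SE, edgeR adjusted p = 0.725) and was 0.11 with that GC and length correction. Elk4, a ternary complex factor that pairs with SRF, was lower in all KO hearts, at 56.5 ± 1.59 CPM in KO and 68.4 ± 9.53 in WT (SD, n = 4 each; log2 fold change -0.28 ± 0.11, edgeR adjusted p = 0.748). Of the 24 tested genes, 1 was higher and 1 lower in all KO hearts, and 4.12% of all genes tested separated in either direction. Both were named for a small p-value, which favours such separation. Zfpm1, a cofactor of GATA proteins, had a log2 fold change of 0.33 ± 0.15 (SE, edgeR adjusted p = 0.777). Myocd, which encodes the SRF coactivator myocardin, measured 27.4 ± 2.88 CPM in KO and 23.9 ± 5.52 in WT (SD, n = 4 each). Its log2 fold change was 0.20 ± 0.16 (SE, edgeR adjusted p = 0.833), and 0.054 to 0.33 over the alternatives.

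Other heart transcription factors had 0 of 17 tested genes called, 4 above 0 and 13 below, with a median log2 fold change of -0.13 (-0.25 without WT replicate 2). Tbx3, a T-box repressor of the conduction system, was higher in all KO hearts, at 25.3 ± 2.64 CPM in KO and 19.5 ± 2.20 in WT (SD, n = 4 each; log2 fold change 0.37 ± 0.13, edgeR adjusted p = 0.717). Tbx18, a T-box factor of epicardium and pericytes, was lower in all KO hearts, at 4.13, 5.18, 4.08 and 4.81 CPM in KO replicates 5 to 8 and 7.79, 9.31, 6.21 and 5.91 CPM in WT replicates 1 to 4. Its log2 fold change was -0.68 ± 0.20 (SE, edgeR adjusted p = 0.711). Of the 17 tested genes, 1 was higher and 1 lower in all KO hearts, against 4.12% of all genes tested in either direction. Tbx3 and Tbx18 were likewise named for a small p-value. Irx3, a homeobox gene of the fast conduction system, had a log2 fold change of 0.37 ± 0.19 (SE, edgeR adjusted p = 0.782), and 0.19 without WT replicate 2. Mef2b had 0 counts in every heart, Hand1 had 0 in 7 of 8 hearts, and Gata5 had at most 5 in any heart.

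Targets of GATA, NKX and T-box factors had 0 of 17 genes called, 7 above 0 and 10 below, with a median log2 fold change of -0.05 (0.03 without WT replicate 2). Nppa, which encodes atrial natriuretic peptide, measured 556, 447, 709 and 693 CPM in KO replicates 5 to 8 and 445, 476, 420 and 259.6 CPM in WT replicates 1 to 4. KO replicate 6 alone lay within the WT range, and the log2 fold change of 0.59 ± 0.19 did not pass (SE, edgeR adjusted p = 0.711). Nppb, which encodes brain natriuretic peptide, measured 182 to 373 CPM in KO, against 246, 1209, 285 and 258 CPM in WT replicates 1 to 4. Its log2 fold change was -0.84 ± 0.47 (SE, edgeR adjusted p = 0.784) and 0.09 without WT replicate 2.

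The Nppa promoter is shown as a short stretch in which motifs of several of the 10 factors stand side by side. It lies at chr4:148000472-148000721 on the plus strand of GRCm38.p6 (RefSeq) and ends just before the RefSeq start. Capitals mark TCACACC, a T-box motif, at 250 bases before the start, AAGTG at 239 and 65 bases, and TGATAA, one form of the motif of GATA proteins, at 122 bases. TCACACC was present in 3.33% of all promoters.
Nppa: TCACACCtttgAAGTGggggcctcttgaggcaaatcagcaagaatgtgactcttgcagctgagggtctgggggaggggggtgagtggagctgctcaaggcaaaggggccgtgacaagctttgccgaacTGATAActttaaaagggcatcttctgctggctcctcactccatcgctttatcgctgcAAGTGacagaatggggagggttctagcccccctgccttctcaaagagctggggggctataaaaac

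MEF2 targets had 0 of 16 genes called, 4 above 0 and 12 below, with a median log2 fold change of -0.05, and without WT replicate 2 there were 12 above 0 and 4 below (median 0.07). Casq2, the calcium-binding protein of the sarcoplasmic reticulum, measured 415, 459, 359 and 386 CPM in KO replicates 5 to 8 and 458, 467, 506 and 490 CPM in WT replicates 1 to 4. KO replicate 6 lay just above the lowest WT heart, the other 3 KO hearts lay below all WT hearts, and the log2 fold change of -0.25 ± 0.11 did not pass (SE, edgeR adjusted p = 0.772). Xirp2, an actin-binding protein of the intercalated disc, had 194.9 to 265.8 CPM in KO, against 280.0, 658.4, 255.1 and 242.9 CPM in WT replicates 1 to 4. Its log2 fold change was -0.65 ± 0.28 (SE, edgeR adjusted p = 0.772), and -0.18 without WT replicate 2. Xirp1, its paralog, had a log2 fold change of -0.92 ± 0.46 (SE, edgeR adjusted p = 0.777) and 0.07 without that library.

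A MEF2 box occurred in promoters of Casq2, Myoz2, Pgam2 and Xirp2, which are 4 of the 14 MEF2 target genes with promoter sequence. These 14 genes had 19 promoters, and a match in any promoter of a gene counted. Counted promoter by promoter, 2.92% of all promoters held the box. Casq2 and Xirp2 are shown because they had the smallest p-values of that list. Both stretches are on the plus strand of GRCm38.p6 (RefSeq), Casq2 at chr3:102086165-102086414 and Xirp2 at chr2:67445752-67446001. Capitals mark the MEF2 box at 69 and 74 bases before the start of Casq2 and Xirp2, AAGTG on either strand, and in Xirp2 the T-box motif on the minus strand.
Casq2: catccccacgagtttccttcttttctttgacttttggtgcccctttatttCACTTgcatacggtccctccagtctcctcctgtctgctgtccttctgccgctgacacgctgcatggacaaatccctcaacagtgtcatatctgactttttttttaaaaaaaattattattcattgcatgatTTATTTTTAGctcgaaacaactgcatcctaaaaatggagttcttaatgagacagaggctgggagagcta
Xirp2: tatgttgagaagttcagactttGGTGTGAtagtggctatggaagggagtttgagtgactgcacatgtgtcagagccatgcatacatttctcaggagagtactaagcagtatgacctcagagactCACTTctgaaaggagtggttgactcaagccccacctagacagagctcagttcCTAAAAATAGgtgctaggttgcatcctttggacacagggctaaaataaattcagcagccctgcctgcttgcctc

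Muscle and cytoskeletal targets of SRF had 0 of 15 genes called, 3 above 0 and 12 below, with a median log2 fold change of -0.19 (-0.06 without WT replicate 2, and 0.0049 with 1 surrogate variable in the fit). Actb, the cytoplasmic beta-actin gene, was 950.7 ± 142.0 CPM in KO and 1196 ± 125.8 in WT (SD, n = 4 each; log2 fold change -0.33 ± 0.13, edgeR adjusted p = 0.736). Actg1, the cytoplasmic gamma-actin gene, had a log2 fold change of -0.33 ± 0.16 (SE, edgeR adjusted p = 0.777). Itga5, the fibronectin receptor subunit, had -0.36 ± 0.20 (SE, edgeR adjusted p = 0.784) and -0.06 without WT replicate 2. A CArG box lay in promoters of 7 of the 13 genes of this list with promoter sequence, among them Acta1, Actg1 and Vcl.

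Immediate early targets of SRF had 0 of 9 genes called and 9 below 0, with a median log2 fold change of -0.40. That median was -1.28 when KO replicate 7 was left out and -0.15 when KO replicate 5 was. Fos, a subunit of the AP-1 factor, held 57, 58, 667 and 152 counts in KO replicates 5 to 8 and 70, 243, 437 and 544 in WT replicates 1 to 4, so KO replicate 7 was the highest heart of all and KO replicates 5 and 6 the lowest. Egr2, a zinc finger factor, had a log2 fold change of -1.05 ± 0.54 (SE, edgeR adjusted p = 0.777), and the matricellular gene Ccn1 had -0.80 ± 0.39 (SE, edgeR adjusted p = 0.777). Egr2 was -1.79 when KO replicate 7 was left out and -0.50 when WT replicate 3 was, and Ccn1 was -0.35 without WT replicate 2 and -0.30 with 1 surrogate variable. Ccn2, encoding connective tissue growth factor, measured 96.1 to 211.4 CPM in KO, against 88.7, 860.0, 140.6 and 95.4 CPM in WT replicates 1 to 4, and its log2 fold change of -1.08 ± 0.62 was 0.37 without WT replicate 2 (SE, edgeR adjusted p = 0.787 with all libraries).

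**Figure D4:**
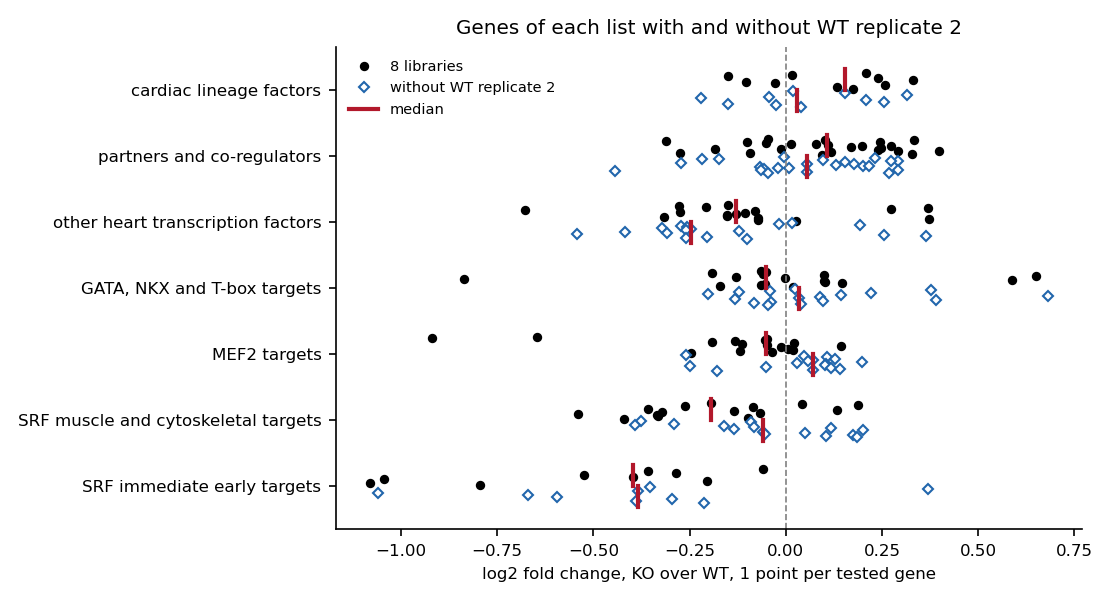
Log2 fold change of KO over WT (horizontal axis) of each tested gene in the cardiac lineage factors and 6 lists of their partners and targets, with filled points from 8 libraries, open diamonds without WT replicate 2, and red bars for medians. Medians of the lineage factors stand at 0.15 and 0.03, and of the SRF immediate early targets at -0.40 and -0.38.

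Several of the values above turned on WT replicate 2. It was the lowest of 8 hearts for Gata4, Tbx5 and Mef2d and the highest for 0 of the 10, and it held the highest value of Nppb, Xirp1, Xirp2, Itga5, Ccn1 and Ccn2. Mef2c in that heart, at 40.5 CPM, was below all hearts but KO replicate 8. KO replicate 8 was the highest heart for Gata6, Tbx20 and Hand2, and WT replicate 1 the lowest for Nkx2-5, Hand2 and Srf.

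Markers of ventricular cardiomyocytes were abundant in all hearts, with a summed level of 82730 to 95510 CPM in KO and 79810 to 95870 in WT, and -0.03 as the median log2 fold change of 12 genes. Of 9 atrial markers, 2 stayed under 1 CPM in every heart, 1 of these at 0 counts, and the rest passed 1 CPM in some hearts. The list summed to 521 to 773 CPM in KO and 327 to 542 in WT, most of it Nppa. The 6 tested atrial markers had a median of 0.22, with 4 above 0 (0.24 without WT replicate 2). Fibroblast markers were below 0 for 9 of 9 genes (median -0.21, and -0.12 without WT replicate 2), with summed levels of 2191 to 2627 CPM in KO and 2340 to 2946 in WT. Endothelial markers had a median of -0.07 with sums of 2703 to 3439 CPM in KO and 3088 to 3488 in WT, smooth muscle and pericyte markers -0.06 with 996 to 1647 in KO and 1262 to 1468 in WT. Macrophage markers had a median of -0.0091 with sums of 283 to 418 CPM in KO and 266 to 432 in WT. The 3 tested epicardial markers, one of them Tbx18, had a median of -0.28, with sums of 16.9 to 28.5 CPM in KO and 20.9 to 28.4 in WT. Conduction system markers, which include Tbx3, had a median of 0.48 over 6 genes, with sums of 54.1 to 91.4 CPM in KO and 49.1 to 64.9 in WT and Isl1 at 0 in every heart. Blood markers had a median of 0.49 over 9 genes, with sums of 1166 to 2175 CPM in KO and 833 to 1814 in WT. Without WT replicate 2 the medians were 0.03 for cardiomyocyte, 0.02 for endothelial and 0.02 for macrophage markers. No gene of these lists was called, against 0.0225% of all genes tested. The part of cell composition in the values of the lineage factors was not tested.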

How the data were processed

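The deposited table holds raw counts per Ensembl gene, 1 column per heart, which the authors left without normalization, per the file header and its whole-number values. The submitters' processing notes name STAR 2.7.1a and GRCm38 (mm10), and the labels' protocols name stranded TruSeq poly(A) libraries. The sources used here name no counter, strand setting or annotation release. Symbols, spans and exon lengths came from GENCODE M21 (GRCm38), which matched 36429 of 38293 identifiers, and promoters from RefSeq (GRCm38.p6).

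After filterByExpr (minimum count 10) and TMM scaling, 13336 genes entered the quasi-likelihood test of edgeR 4.0.16 in R 4.3.3 (glmQLFit, then glmQLFTest), genotype being the only term, with Benjamini-Hochberg adjustment and a threshold of 0.05. SE is the log2 fold change over the root of F, and intervals are 95%. The test was also run on simulated counts with equal spread in both groups and no outlying library. That run does not cover the uneven spread of the WT hearts. Counting error and variation between hearts both enter the fit, and counts alone did not set the precision. Mef2d, with 1317 to 3276 counts, had an SE of 0.15, against 0.11 for Gata6 with 505 to 670. Chi-square per degree of freedom between replicates was 11.4 to 20.1 for pairs of KO hearts and 21.3 to 59.4 for pairs of WT hearts. WT hearts thus differed more among themselves, while the fit took the same dispersion for both groups. Each library counted as 1 sample, and the series' design text gives separate hearts.

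Alternatives were DESeq2 1.42.0 and its size factors, library totals, limma-voom (limma 3.58.1), no filter, 1 CPM in 4 libraries, no mitochondrial genes, 1 surrogate variable (sva 3.50.0), a GC content and length trend removed (splines, 4 degrees of freedom) and each library left out. Paralog shares were compared by exact permutation tests (scipy 1.17.1).

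The members and lists were chosen with earlier results of these data known. The naming rule took all 10 members, Nbdy, genes overlapping a member and the 3 non-member genes with the smallest p of each partner or target list. One gene that this rule takes is not reported here. Myocd, Fos, Acta1, Vcl, Myoz2, Pgam2, Mef2b, Hand1, Gata5 and Isl1 were named after their values were seen.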

Additional observations from a re-analysis of the deposited data

Results flagged for a closer look

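Within groups of 4, a heart was marked when its gap to the nearest other heart passed Dixon's 95% critical value, a limit that chance passes in about 1 of 20 groups. Among the 90 groups of the genes taken by the naming rule, the summed markers, the paralog shares and the library totals, 6 were marked, all in WT and 0 for a lineage factor. In WT replicate 2, Nppb was 1209 CPM (245.9 to 284.7 in the other WT hearts), Xirp2 658.4 CPM (242.9 to 280.0), Xirp1 739.0 CPM (140.8 to 158.8), Itga5 170.2 CPM (84.95 to 93.53) and Ccn2 860.0 CPM (88.7 to 140.6). WT replicate 1 held 29.2% mitochondrial counts, against 19.4 to 19.9% in the other WT hearts.

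The same check over every tested gene of the lists marked 22 of 318 groups, 8 in KO and 14 in WT, and 0 of the lineage factors. WT replicate 2 accounted for 12 of them, among them Vcl at 243.1 CPM (107.3 to 112.7 in the other WT hearts). KO replicate 7 accounted for 4, with Nr4a1 at 174.9 CPM (44.31 to 55.13 in the other KO hearts), Egr1 at 524.6 CPM (68.38 to 137.2), Fosb at 13.1 CPM (1.54 to 3.33) and Egr3 at 4.39 CPM (0.142 to 0.700). These genes were named after their values were seen.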

How the results depend on the processing

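Under the 17 alternatives none of the 10 lineage factors passed, and the smallest adjusted p was 0.348. Of 170 values of the 10 genes, 164 kept their sign. Tbx20 turned to -0.031 with library totals and ran from -0.088 to 0.10 with single libraries left out, and Mef2a from -0.10 to 0.017. The median of the 10 was 0.058 with 1 surrogate variable, 0.060 with the GC and length correction and 0.029 to 0.17 with libraries left out. Over all genes 3 were called, against 11 with DESeq2, 10 without a filter, 5 with 1 surrogate variable and 2 to 6 with libraries left out.

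With 1 surrogate variable the medians of other heart factors and of SRF muscle targets were -0.23 and 0.0049, and Ccn2 was 0.20. With libraries left out these medians ran from -0.25 to -0.074 and from -0.42 to -0.060, and that of epicardial markers from -0.63 to -0.093 (-0.65 with limma-voom). Nppb ran from -1.06 to 0.089, Xirp1 from -1.15 to 0.070, Ccn2 from -1.38 to 0.37 and the Gata4 share from -1.76 to 4.34 points. The cause was not tested. Among genes named for their promoters, Vcl was -0.19 and turned to 0.18 without WT replicate 2, and Myoz2 was 0.02 and turned to -0.05 without KO replicate 8. No paired analysis was possible because the groups share no replicate number. Depth limits Tbx5 most among the 10, with 99 counts in WT replicate 2.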
